A study of Sus scrofa with 23 samples.

Results

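HOX genes encode homeodomain transcription factors that lie in the clusters HOXA, HOXB, HOXC and HOXD, and they were described here in the kidney cortex of newborn pigs. Members were all gene symbols made of HOX, a cluster letter and a position number, which gave 36 of the 26687 genes in the deposited tables. HOXA held 11 of them, HOXB 8, HOXC 9 and HOXD 8. HOXB4, HOXB9 and HOXD4 are not analysed here. Cortex RNA came from 23 newborn pigs, 1 library per pig, depleted of ribosomal RNA. The labels give CFTR-/- (CF, n = 11), CFTR+/- (HET, n = 6) and wild-type (WT, n = 6), and the WT and HET libraries together form the non-CF group (n = 12) that the study set against CF. The disrupted allele is carried in every cell of the animal, and neither the sex nor the litter of a pig is labelled.

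In vertebrate embryos HOX genes are switched on in an order that follows their place in the cluster, with low numbers expressed towards the head and high numbers towards the tail. Genes with the same number in different clusters are paralogs, descended from one ancestral gene. In the kidney the paralogs of groups 9, 10 and 11 are known for patterning the intermediate mesoderm and its derivatives, and the Hox11 paralogs are required for outgrowth of the ureteric bud and for the nephron progenitors. Groups 12 and 13 are known from the most posterior structures, such as the digits and the hindgut.

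The clusters lie on separate chromosomes of the pig genome Sscrofa11.1. HOXA spans chr18:45373340-45480306, HOXB chr12:24784953-24950661, HOXC chr5:19151096-19268267 and HOXD chr15:81893997-81990026. HOXB is on the minus strand and the other clusters are on the plus strand. Within each cluster all the members have the same orientation, and some annotated genes overlap their neighbours, as HOXA3 does with HOXA4, HOXA5 and HOXA6. CFTR, the disrupted gene, is on the same chromosome as HOXA, 16.6 Mb away.

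The paralogs of groups 9 to 13 are shown by the 24 coding bases of the homeodomain's recognition helix, the part that reads the major groove of DNA. Capitals mark bases that differ from HOXA11. These bases were read from the genome, and they show how closely the members at either side of the expression boundary resemble each other.
HOXA9 (chr18:45410291-45410314): tggttCcagaacCgCagGatgaaA
HOXC9 (chr5:19215461-19215484): tggtttcagaacCgAagGatgaag
HOXD9 (chr15:81925485-81925508): tggttCcagaaTCgTagGatgaaA
HOXA10 (chr18:45401824-45401847): tggtttcagaacCgCagGatgaaA
HOXC10 (chr5:19202041-19202064): tggtttcaAaaTCgCagaatgaaA
HOXD10 (chr15:81920374-81920397): tggtttcaAaacCgCCgaatgaaA
HOXA11 (chr18:45390872-45390895): tggtttcagaacaggagaatgaag
HOXC11 (chr5:19187932-19187955): tggtttcagaacagAagGatgaaA
HOXD11 (chr15:81910201-81910224): tggttCcagaaTCgCagGatgaaA
HOXC12 (chr5:19168726-19168749): tggtttcagaacCgCagaatgaaA
HOXD12 (chr15:81901926-81901949): tggttCcagaacCggCgTatgaag
HOXA13 (chr18:45375262-45375285): tggttCcagaacagAagGGtCaaA
HOXB13 (chr12:24948733-24948756, minus strand): tggtttcagaaTCgCCgGGtCaag
HOXC13 (chr5:19157571-19157594): tggttCcagaacCggCgGGtCaaA
HOXD13 (chr15:81895878-81895901): tggtttcagaacCgAagaGtgaaA
Over the whole homeobox of 180 bases, HOXC11 was 83.9% and HOXD11 82.2% identical to HOXA11, while HOXA13 was 62.2% identical to it.

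Libraries held between 32901281 and 52952273 estimated counts, and at these depths 3 counts equal 0.0567 to 0.0912 CPM (counts scaled to library size). CFTR RNA went against the genotype labels, with 1.27 to 3.67 CPM in libraries labelled WT, 9.41 to 17.5 in HET and 12.5 to 23.5 in CF, so each direction below is that of the libraries labelled CF, HET or WT. When all libraries were placed by multidimensional scaling, a gap along axis 2 (10.6% of the variance) separated the pigs numbered 1 to 6 and 12 to 18 (n = 13, called earlier-numbered) from those numbered 7 to 11 and 19 to 23 (n = 10, called later-numbered). The labels name no batch, and both sets hold all 3 labels. Axis 1 (17.2% of the variance) held another gap, from -0.451 (CF pig 8) to 0.191 (HET pig 15), with libraries of every label on each side. Among later-numbered pigs, WT pigs 22 and 23 lay on its negative side and HET pigs 19, 20 and 21 on its positive side. The part of axis 1 in the results below was not tested. CF pig 1 stood apart, in that it had the highest summed TPM of the smooth muscle and mesangium, endothelium, erythroid and medulla marker lists of all 23 libraries. No marker in the proximal tubule, distal tubule, collecting duct or podocyte lists had a median at or under 3 counts, and the summed proximal tubule markers ranged from 1665 to 3144 TPM. In bulk tissue, fewer cells that express a gene cannot be told apart from less RNA per cell.

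Levels of different genes were compared in TPM, a unit scaled to library size and to transcript length. The cortex expressed HOX genes up to position 11 and almost none beyond it. Apart from HOXB1, the members up to position 11 numbered 29, and all of these had a median of 1 TPM or more, with 26 of them at 1 TPM or more in every library. The other 7 members, HOXB1, HOXC12, HOXD12 and the position 13 genes HOXA13, HOXB13, HOXC13 and HOXD13, had at most 8 counts in any library. Together, positions 1 to 11 contributed between 99.94% and 100% of the summed HOX TPM of each library, which had a median of 326 TPM and ranged from 248 in CF pig 1 to 438 in CF pig 6. HOXA gave a median of 42.1% of that sum, HOXD 28.3%, HOXB 20.6% and HOXC 8.45%.

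**Figure D1:**
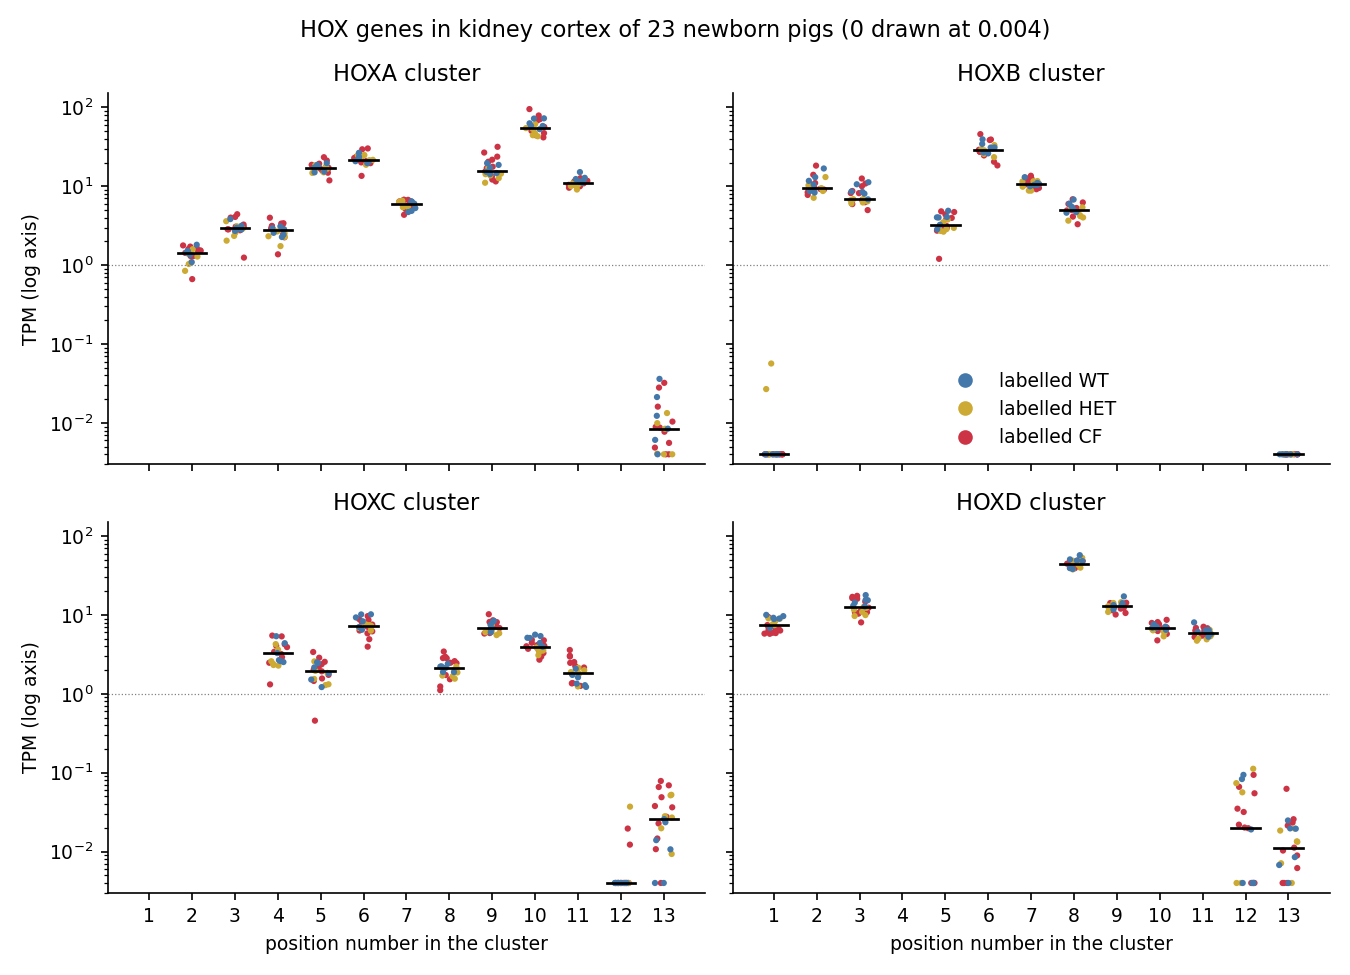
TPM on a log axis of HOX genes against its position number, 1 panel per cluster, with 1 point for each of 23 libraries coloured by label and a black line at the median. A value of 0 is drawn at 0.004, and the dotted line marks 1 TPM. Levels fall from above 1 TPM at position 11 to at most 0.112 TPM at positions 12 and 13 in HOXA, HOXC and HOXD.

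HOXA10 and HOXD8 were the most abundant members. HOXA10, a group 10 paralog also known from the uterus and limb, had a median of 54.6 TPM (range 41.6 to 95.2), which was higher than 94.1% of the genes that passed the expression filter. HOXD8 had a median of 44.7 TPM (range 37.8 to 57.3) and was exceeded by HOXA10 in 22 of 23 libraries. HOXB6, at 28.5 TPM (range 18.4 to 45.8), was the highest member of its cluster, and it stood above HOXA6 in all 23 libraries. In HOXC the highest member was HOXC6, with 7.29 TPM (range 3.96 to 10.2). Below HOXA5, neighbours in the order of medians changed places between libraries. HOXD9 and HOXD3, with medians of 12.9 and 12.6 TPM, were in that order in 12 of 23 libraries. Towards the low end of the expressed members were HOXA2, HOXC11 and HOXC5, with medians of 1.45, 1.85 and 1.93 TPM.

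Within paralog groups 9, 10 and 11 the HOXA member had the highest level and the HOXC member the lowest. In group 9, HOXA9 had a median of 15.4 TPM, HOXD9 12.9 and HOXC9 6.77. Group 10 was spread more widely, with HOXA10 at 54.6, HOXD10 at 6.76 and HOXC10 at 3.95 TPM. Group 11, the paralogs named for the early steps of kidney formation, had HOXA11 at 11.07, HOXD11 at 5.95 and HOXC11 at 1.85 TPM. The sum of the group 10 genes (median 65.1 TPM, range 51.9 to 108) was the largest of any position, followed by position 6 (57.5, range 35.9 to 84.6) and position 8 (51.9, range 44.0 to 64.1).

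The step beyond position 11 was crossed within a few kilobases. HOXD11 had between 4.72 and 8.05 TPM, and HOXD12, whose gene ends 4.33 kb away, had between 0 and 0.112 TPM with 0 counts in 9 of 23 libraries and at most 5. HOXC11 and HOXC12 are 11.9 kb apart: HOXC12 was at 0 counts in 20 libraries and reached 3 counts in HET pig 20. HOXA11 and HOXA13 are 9.48 kb apart: HOXA13, a regulator of digits and urogenital outlets, had 0 counts in 5 libraries and at most 7. HOXC13, known from hair follicles and nails, had 0 to 8 counts and was at 0 in 3 libraries, and HOXD13 had 0 to 8 counts with 0 in 5. HOXB13, 68.6 kb beyond HOXB8 and known from the prostate and the tail end of the spinal cord, was at 0 in all 23 libraries, which allows up to 3 counts in each. HOXB1, a hindbrain gene at the opposite end of its cluster, was at 0 in 21 libraries, while HOXB2, 10.4 kb from it, had between 7.14 and 18.3 TPM. No library had more than 8 counts of any of these genes, so genotype could not be compared for them at this depth.

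The 250 bases before the annotated starts at the closest step, between HOXD12 and HOXD11, are shown with CG dinucleotides in capitals. Both are on the plus strand of Sscrofa11.1, and they are shown because the RNA level steps up between these genes.
HOXD12 (chr15:81900712-81900961): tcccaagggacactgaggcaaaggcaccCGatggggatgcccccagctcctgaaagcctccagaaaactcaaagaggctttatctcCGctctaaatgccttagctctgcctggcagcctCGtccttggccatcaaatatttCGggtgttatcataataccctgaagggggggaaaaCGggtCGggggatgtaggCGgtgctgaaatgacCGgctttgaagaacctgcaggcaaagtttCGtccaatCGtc
HOXD11 (chr15:81906404-81906653): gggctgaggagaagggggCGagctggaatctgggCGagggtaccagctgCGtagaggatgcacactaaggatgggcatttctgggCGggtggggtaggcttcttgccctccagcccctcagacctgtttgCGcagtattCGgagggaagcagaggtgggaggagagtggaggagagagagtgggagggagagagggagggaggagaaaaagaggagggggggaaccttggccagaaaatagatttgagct
The window of HOXD12 held 10 CG dinucleotides and that of HOXD11 held 6, and over all 36 HOX windows the median was 12.5, against 11 over 20664 protein-coding genes. Searched on both strands, the letters TATAAA stood in 6 of the 36 windows (10.4% of all genes' windows), GGGCGG in 13 (44.4%), TTTATG in 5 (8.58%) and TGATNNAT in 4 (6.10%). Of these the HOXD11 window held GGGCGG and the HOXD12 window held none. These are matches of letters only.

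CF was first compared with non-CF over all 20921 genes that passed the expression filter, among them 29 HOX members. No HOX member passed an adjusted p of 0.05 in the quasi-likelihood F-test of edgeR, adjusted by the method of Benjamini and Hochberg, where 0.349% of all genes did. At an unadjusted p under 0.05 there were 4 members of 29, or 13.8%, against 13.7% of all genes, with 3 higher in CF (7.35% of all genes) and 1 lower (6.36%). DESeq2 called 1 member at an adjusted p under 0.05, where it called 2.33% of all genes. limma-voom and the exact Mann-Whitney U test called none, where each called 0.22% of all genes, and had 3 and 4 members at an unadjusted p under 0.05 (13.1% and 11.6% of all genes). The summed medulla and papilla markers were at 167 to 320 TPM in CF (median 245) and 174 to 254.8 in non-CF (median 190), and their part in these results was not tested. CF was higher for 19 members and lower for 10, with a median log2 difference of 0.07, and 49.8% of all genes were higher. The 95% intervals of all 29 members lay within a log2 difference of 1 in either direction, and those of 23 lay within 0.5.

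**Figure D2:**
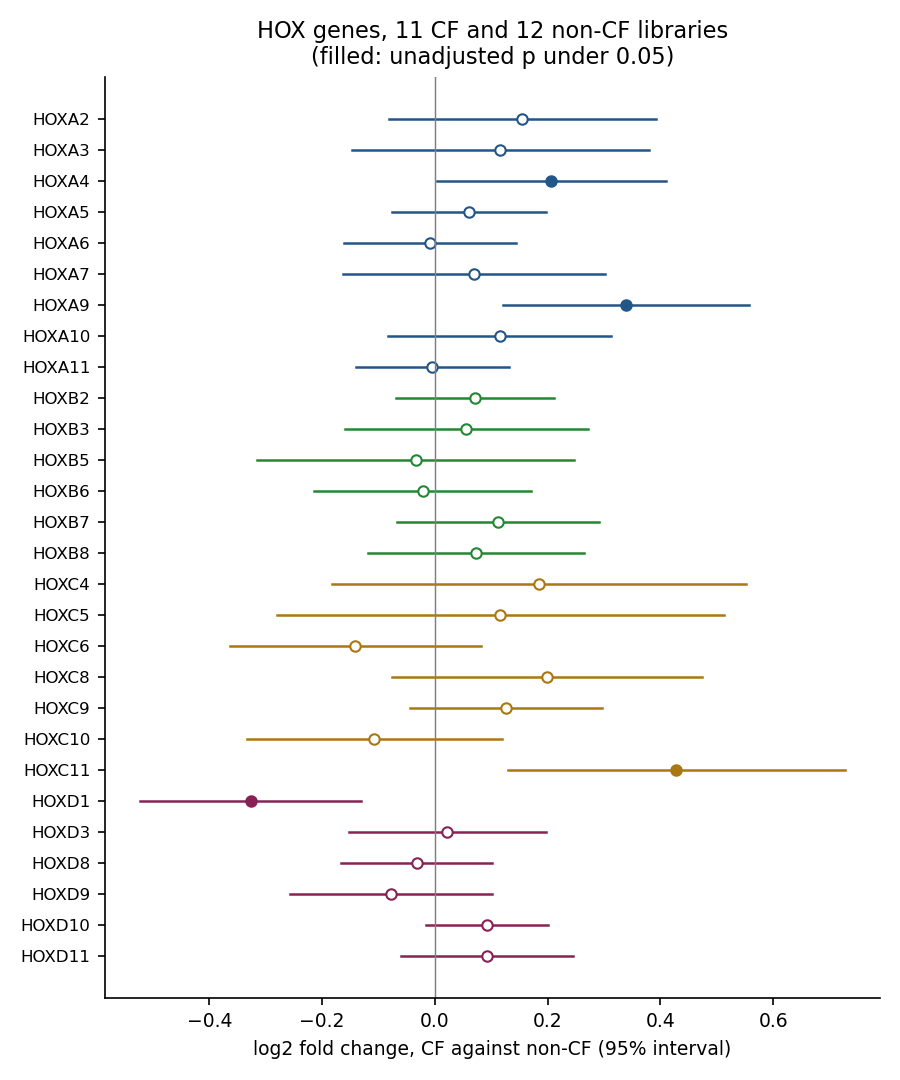
Log2 difference of CF (n = 11) against non-CF (n = 12) for HOX members past the expression filter, as points with 95% intervals derived from edgeR's F-test, ordered and coloured by cluster. Filled points mark an unadjusted p under 0.05, which were HOXA4, HOXA9 and HOXC11 above 0 and HOXD1 below 0.

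HOXD1, an anterior gene at the low-number end of HOXD, had the smallest p. It had between 9.94 and 19.9 CPM in the libraries labelled CF (median 12.6), between 14.3 and 17.3 in HET (median 15.6) and between 11.8 and 18.6 in WT (median 15.6). Of the CF libraries 10 of 11 lay below the non-CF median, and the exception, CF pig 4, was the highest library of all. The log2 difference was -0.33 (SE 0.10), with edgeR's unadjusted p = 0.00206 and adjusted p = 0.105. Over 11 other settings the adjusted p was under 0.05 in 1, DESeq2 (0.0450), and reached 0.584 in earlier-numbered pigs alone. With each of the 23 libraries left out it was under 0.05 in 1 case, without CF pig 4 (0.0112, log2 difference -0.41), and reached 0.168 without CF pig 5. HOXD1 was lower in CF in both sets of pig numbers, by -0.26 in earlier-numbered and -0.40 in later-numbered pigs on the log2 scale.

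HOXA9, which lies next to HOXA10 and is widely known from blood-forming cells, was the second. It ranged from 67.6 to 149 CPM in CF (median 109), from 67.7 to 85.9 in HET (median 80.8) and from 71.7 to 93.0 in WT (median 87.4). The CF libraries spread over the whole non-CF range and above it, with 7 of them above every non-CF library. The log2 difference was 0.34 (SE 0.11, adjusted p = 0.130 in edgeR). HOXA9 shares 12.5% of its 31-base stretches with other genes, mostly with LOC106506841, an antisense noncoding gene that overlaps 12.9% of its exon bases. That gene had a log2 difference of 0.30 (SE 0.15, adjusted p = 0.387 in edgeR), and the strand setting of the quantification is not given in the sources used here, so reads of the overlap cannot be told apart.

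HOXC11, the least abundant of the group 11 paralogs, ranged from 7.95 to 19.2 CPM in CF (median 12.5), from 8.09 to 11.98 in HET (median 11.4) and from 6.59 to 10.5 in WT (median 8.43). The highest 7 libraries of all were labelled CF, and 3 CF libraries lay among the low WT values. The log2 difference against non-CF was 0.43 (SE 0.15, adjusted p = 0.167 in edgeR). HOXA4 was the fourth, at 2.67 to 5.58 CPM in CF and 3.17 to 4.87 in non-CF, with a log2 difference of 0.21 (SE 0.10, adjusted p = 0.355 in edgeR). CF pig 1 was the lowest library for HOXA4, and without it the log2 difference was 0.27 with an adjusted p of 0.102. The next members by p were HOXD10, HOXC9 and HOXC8, with log2 differences of 0.09, 0.13 and 0.20 and adjusted p of 0.458, 0.534 and 0.551 in edgeR.

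The kidney paralogs of groups 9 to 11 other than HOXA9 and HOXC11 had no unadjusted p under 0.05 for CF against non-CF over all libraries. HOXA10 had a mean of 172 ± 35.4 CPM (SD, n = 11) in CF and 159 ± 19.5 (SD, n = 12) in non-CF, and HOXA11 had 22.4 ± 1.89 and 22.5 ± 2.69. Means of HOXD11 were 18.6 ± 1.75 and 17.5 ± 2.47 CPM, and those of HOXD10 were 54.6 ± 4.21 and 51.2 ± 4.08. HOXD9 and HOXC10 were lower in CF, with 32.2 ± 4.62 against 34.0 ± 5.26 and 6.90 ± 1.14 against 7.43 ± 1.53 CPM. HOXC9 had 10.2 ± 1.22 against 9.36 ± 1.34. In later-numbered pigs alone the log2 differences were 0.27 for HOXA10, 0.27 for HOXC9 and 0.23 for HOXD10, against -0.02, 0.03 and -0.01 in earlier-numbered pigs. Over all libraries these differences had an edgeR adjusted p of 0.458 or more.

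Leaving out CF pig 1, which was the lowest library for 13 of 29 members, raised the number at an unadjusted p under 0.05 from 4 to 8, against 14.7% of all genes in that fit. The added members were HOXA2, HOXA3, HOXC8 and HOXD10, all higher in CF, and none had an adjusted p under 0.05. With any other library left out the number was 3 to 5, against 11.7% to 15.1% of all genes. Leaving out a CF library with low values raises CF, so no conclusion is drawn from the added members.

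**Figure D3:**
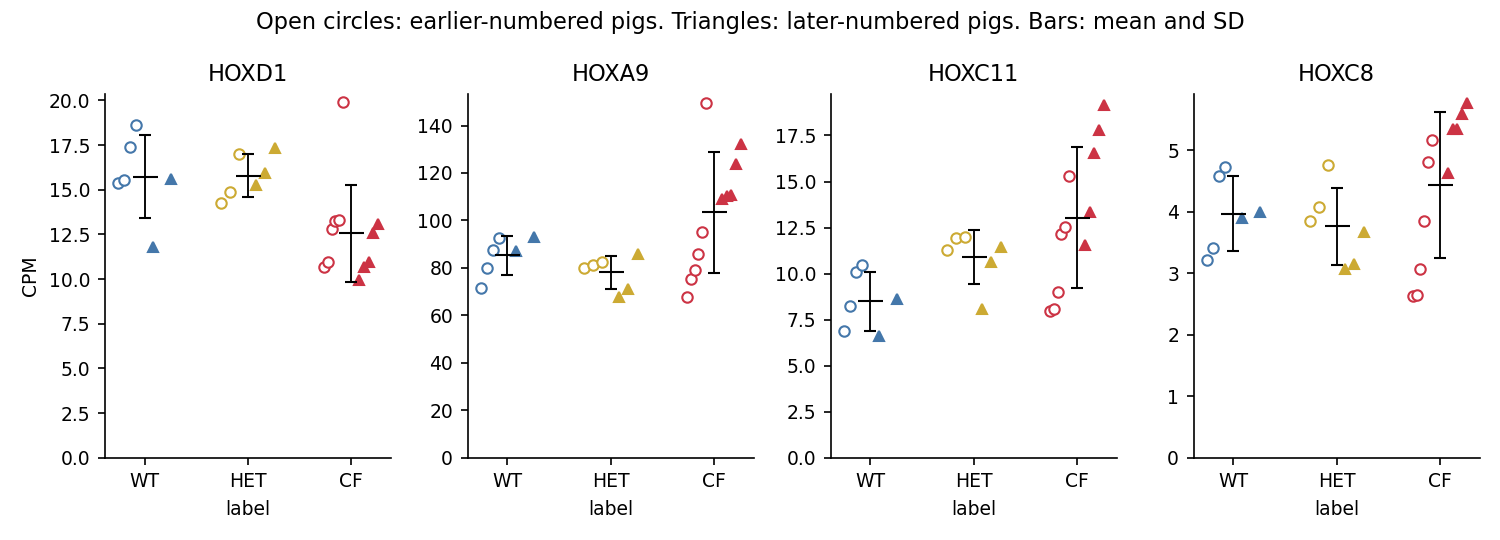
CPM of HOXD1, HOXA9, HOXC11 and HOXC8 in each library by label, with open circles for earlier-numbered and filled triangles for later-numbered pigs. Bars give the mean and SD of each label (WT n = 6, HET n = 6, CF n = 11), and the later-numbered CF triangles of HOXA9, HOXC11 and HOXC8 lie above every later-numbered WT and HET triangle.

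The 3 labels were then compared pairwise in 1 fit of all libraries. No member passed an adjusted p of 0.05 for CF against WT (0.336% of all genes did), for HET against WT (0.00467%) or for CF against HET (0%). At an unadjusted p under 0.05 the counts were 4 of 29 for CF against WT (14% of all genes), 3 for HET against WT (8%) and 2 for CF against HET (9.83%), and DESeq2 called 1, 0 and 0 members (2.67%, 0.149% and 0.261% of all genes) and limma-voom 0 in each. CF against WT had 2 of its 4 higher (7.55% of all genes) and 2 lower (6.41%). All 3 of HET against WT were lower (3.87%) and none higher (4.13%), and CF against HET had 1 higher (5.55%) and 1 lower (4.28%). At any p, CF was higher than WT for 19 members (49.8% of all genes) and higher than HET for 21 (51.4%), and HET was higher than WT for 11 (48.8%). HOXC11 had the smallest p for CF against WT, with a log2 difference of 0.62 (SE 0.17, adjusted p = 0.0952 in edgeR). DESeq2 gave it an adjusted p of 0.0190. The mean of the HET libraries, 10.9 ± 1.46 CPM (SD, n = 6), lay between those of WT (8.49 ± 1.60, n = 6) and CF (13.04 ± 3.84, n = 11), and the log2 difference of HET from WT was 0.36 (SE 0.19, adjusted p = 0.655 in edgeR).

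HOXC10, HOXD3 and HOXB3 had the smallest p for HET against WT, all lower in HET. HOXC10 had 4.94 to 7.68 CPM in HET and 6.40 to 10.5 in WT, and a log2 difference of -0.35 (SE 0.14). HOXD3 and HOXB3, paralogs of the anterior group 3, had log2 differences of -0.27 (SE 0.11) and -0.33 (SE 0.13). HOXB3 had 46.6 to 55.3 CPM in HET within a WT range of 46.5 to 83.0. HOXB3 shares 10.4% of its 31-base stretches with LOC106505099, an antisense noncoding gene that overlaps 11.4% of its exon bases, so reads of that overlap cannot be told apart either. The adjusted p of these 3 members was 0.566, 0.566 and 0.586 in edgeR. For CF against HET the smallest p were those of HOXA9 (log2 difference 0.41, SE 0.13, adjusted p = 0.330 in edgeR) and HOXD1 (-0.33, SE 0.12, adjusted p = 0.365). CF shares its libraries between these comparisons, and WT and HET each enter more than 1 of them.

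CF was also compared with non-CF within each set of pig numbers. In the 13 earlier-numbered libraries CF was higher for 11 of 29 members, none had an unadjusted p under 0.05 (9.31% of all genes did), and the median log2 difference was -0.02. In the 10 later-numbered libraries CF was higher for 25 members, with a median log2 difference of 0.19. There 14 members had an unadjusted p under 0.05, against 17.4% of all genes, and 4 had an adjusted p under 0.05 in edgeR, against 2.27% of all genes: HOXA3, HOXA9, HOXC8 and HOXC11. Values of 7 members did not overlap between the 5 CF and 5 non-CF libraries, all higher in CF, where 2.25% of all genes did so in that direction, and none were lower (2.39%). In the earlier-numbered libraries none were apart in either direction (0.569% of all genes higher and 0.0621% lower). The 7 were HOXA3, HOXA9, HOXA10, HOXC8, HOXC9, HOXC11 and HOXD10. Members vary together across libraries, so counts of members are not counts of independent genes.

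**Figure D4:**
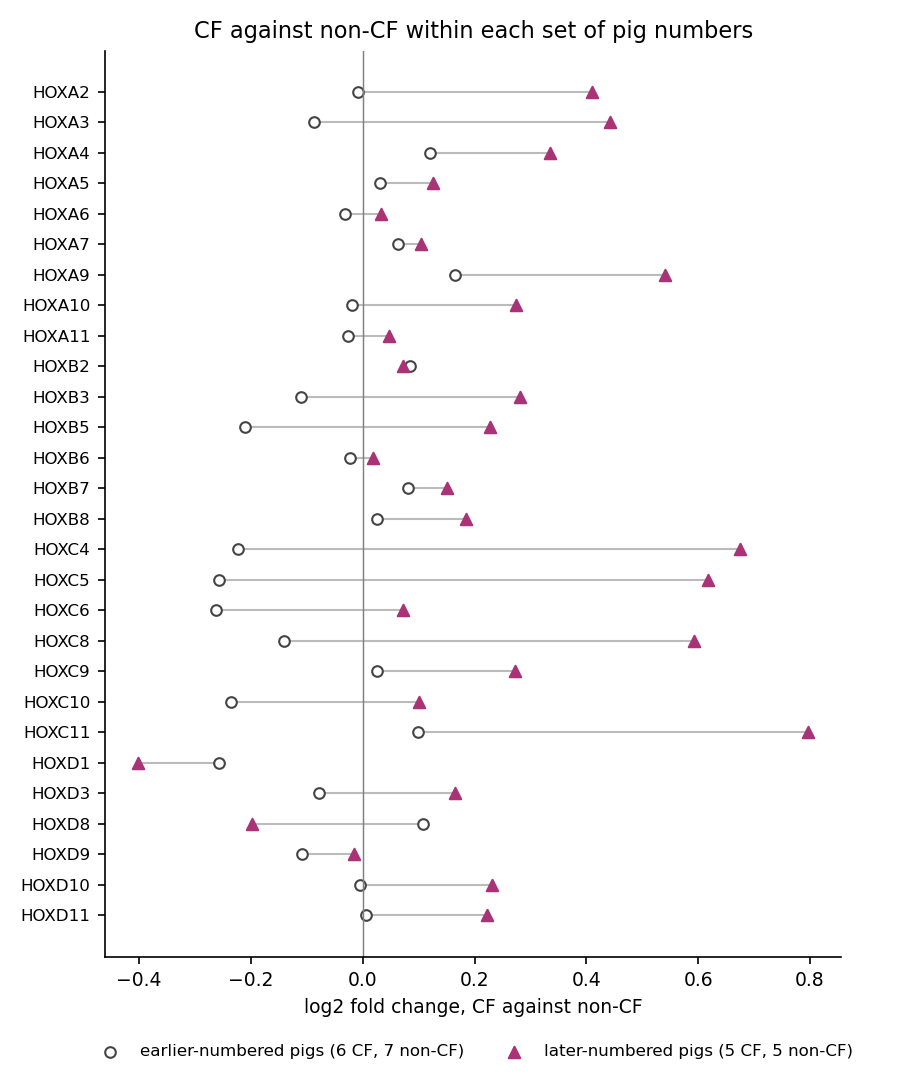
Log2 difference of CF against non-CF for HOX members within the earlier-numbered pigs (open circles, 6 CF and 7 non-CF) and within the later-numbered pigs (triangles, 5 CF and 5 non-CF). The triangle lies to the right of the circle for all 7 HOXC members, and HOXD1 is below 0 in both sets.

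HOXC8, a thoracic-level gene, had the smallest p for a difference between the sets. In later-numbered pigs it had 4.63 to 5.77 CPM in CF and 3.07 to 3.999 in non-CF, and in earlier-numbered pigs 2.62 to 5.16 in CF and 3.21 to 4.75 in non-CF. The later-numbered groups were apart and the earlier-numbered groups overlapped. The log2 differences were 0.59 (SE 0.12) and -0.14 (SE 0.18). HOXA9 had 109 to 132 CPM in later-numbered CF libraries and 67.7 to 93.0 in non-CF ones (log2 difference 0.54, SE 0.10, adjusted p = 0.0146 in edgeR), against 67.6 to 149 and 71.7 to 92.8 in the earlier-numbered (0.17, SE 0.15). HOXC11 had 11.6 to 19.2 CPM against 6.59 to 11.5 in the later-numbered (log2 difference 0.80, SE 0.17).

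The difference between the sets was tested as the interaction of label and set over 21582 genes. No member had an adjusted p under 0.05 in edgeR (0.0185% of all genes did, 0.00463% upwards and 0.0139% downwards), and DESeq2 called none, where it called 0.701% of all genes, with 7 at an unadjusted p under 0.05 (10.5% of all genes). At an unadjusted p under 0.05 there were 7 members of 29, or 24.1%, against 10.3% of all genes: HOXA3, HOXC4, HOXC5, HOXC8, HOXC11 and HOXD10 upwards (4.4% of all genes) and HOXD8 downwards (5.89%). The signed interaction, later minus earlier, was above 0 for 25 of 29 members, against 49.8% of all genes. It was above 0 for all 7 HOXC members that were tested, with a median of 0.69 on the log2 scale. An interaction above 0 need not be a larger difference. HOXC6 went from -0.26 in earlier-numbered to 0.07 in later-numbered pigs, and HOXC10 from -0.24 to 0.10. HOXC8 had an interaction of 0.73 and an adjusted p of 0.246 in edgeR. HOXD8 went the opposite way, at 0.11 in earlier-numbered and -0.20 in later-numbered pigs. Without CF pig 1, which is earlier-numbered, 7 members had an unadjusted p under 0.05 (11.9% of all genes in that fit) and the interaction was above 0 for 25. Over all 23 libraries left out in turn the number at an unadjusted p under 0.05 ranged from 5 to 10 (8.36% to 12.5% of all genes), and the number with an interaction above 0 from 24 to 26. What sets the pig numbers apart was not tested.

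Covariation was examined along the clusters. For each gene the mean of its label was removed from log2 CPM, and next neighbours by number were correlated over the 23 libraries with a permutation test. Of 25 neighbouring pairs, 11 had an adjusted p under 0.05, 10 with a positive and 1 with a negative Pearson r, and 9 of the 10 were positive in both sets of pig numbers. By Spearman's rho 8 of the 11 had an adjusted p under 0.05, and HOXA4 with HOXA5, HOXB5 with HOXB6 and HOXC9 with HOXC10 did not. No share of calls over pairs of other genes was computed. HOXC4 and HOXC5 gave r = 0.88 (Spearman's rho 0.79, adjusted permutation p = 8.33e-05 and 0.00075), with r = 0.81 without the 2 libraries farthest from the median of HOXC4. Their r was 0.84 in earlier-numbered and 0.89 in later-numbered pigs. HOXA9 and HOXA10, 1.33 kb apart, gave r = 0.84 (rho 0.73, adjusted permutation p = 8.33e-05 and 0.00113), 0.71 without the 2 farthest libraries, and 0.87 and 0.61 within the sets. HOXA5 and HOXA6 gave r = 0.78 (rho 0.73, adjusted permutation p = 8.33e-05 and 0.00075), 0.73 without the 2 farthest, but HOXA5 shares 12% of its 31-base stretches with HOXA6, so counts could be split between them.

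Several neighbouring pairs leaned on CF pig 1. HOXA3 and HOXA4 gave r = 0.82 over all libraries (rho 0.56, adjusted permutation p = 0.000292 and 0.0207) and 0.56 without CF pig 1, while HOXC5 and HOXC6 went from 0.74 (rho 0.73, adjusted permutation p = 0.000643 and 0.00075) to 0.54. Without that library 13 of the 25 pairs had an adjusted p under 0.05. In later-numbered pigs alone the number was 5. HOXD3 and HOXD8 were the negative pair, with r = -0.53 (rho -0.57, adjusted permutation p = 0.0249 and 0.0179), -0.43 without the 2 farthest libraries, and -0.51 and -0.62 within the sets. Other neighbours did not pass, among them HOXA6 with HOXA7 (r = -0.09, adjusted permutation p = 0.685), HOXA7 with HOXA9 (r = -0.20, adjusted permutation p = 0.488) or HOXA10 with HOXA11 (r = -0.11, adjusted permutation p = 0.656).

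Members with the same number lie in different clusters, on different chromosomes. Of 25 such pairs, a set added after the neighbouring pairs had been seen, 12 had an adjusted p under 0.05, all positive, and 8 of these were positive in both sets. By Spearman's rho 7 of the 12 had an adjusted p under 0.05. For these pairs too, no share of calls over pairs of other genes was computed. Some of the 12 leaned on CF pig 1. Without it r went from 0.52 to 0.20 for HOXA3 with HOXD3 and from 0.52 to 0.15 for HOXA4 with HOXC4. HOXA5 went from 0.51 to 0.30 with HOXB5 and from 0.52 to 0.33 with HOXC5, while HOXA11 with HOXD11 stayed at 0.82. HOXB5 and HOXC5 gave r = 0.92 (rho 0.77, adjusted permutation p = 0.000125 and 0.00025), 0.80 without the 2 farthest libraries, 0.95 and 0.79 within the sets and 0.83 without CF pig 1. HOXB6 and HOXC6 gave r = 0.82 (rho 0.83, adjusted permutation p = 0.000125 and 0.00025), and HOXA6 and HOXB6 gave 0.76 (rho 0.75, adjusted permutation p = 0.00015 and 0.000375), with 0.84 and 0.73 without their 2 farthest libraries and 0.73 or more within either set. HOXA11 and HOXD11 gave r = 0.82 (rho 0.83, adjusted permutation p = 0.00015 and 0.00025), 0.79 without the 2 farthest, and 0.93 and 0.77 within the sets, while HOXC11 gave r = -0.17 with HOXA11 and 0.12 with HOXD11 (adjusted permutation p = 0.548 and 0.658). In the annotated transcripts, 2 same-number pairs had a 31-base stretch in common, at most 0.255% of a gene. Sharing of reads between paralogs was not measured.

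By position, the median r was 0.51 over 105 pairs of positions 1 to 6, 0.17 over 36 pairs of positions 9 to 11 and 0.16 over 135 pairs that joined the first block with the second. Pairs within a cluster had a median r of 0.25 and pairs between clusters 0.20. These are descriptions over the same 23 libraries, which share depth and tissue composition, and the part of cell type makeup in them was not tested.

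All 9 TALE cofactors, the PBX, MEIS and PKNOX homeodomain proteins that bind DNA with HOX proteins, were expressed, with MEIS1 at a median of 25.0 TPM and PBX2 at 18.9. Of the 9, none had an adjusted p under 0.05 for CF against non-CF, and MEIS2 (log2 difference -0.15, SE 0.06, adjusted p = 0.272 in edgeR) and PKNOX2 (0.24, SE 0.11, adjusted p = 0.336) had an unadjusted p under 0.05. None of 24 Polycomb subunits, which keep HOX genes repressed, passed, with 4 at an unadjusted p under 0.05 (SUZ12, BMI1 and PHC3 higher, CBX8 lower). That is 4 of 24, where 13.7% of all genes were at that limit. Of 19 Trithorax and other HOX activators, CDX1, CDX2 and GBX2 had a median of 0 TPM and were not tested, and CDX4 had a median of 0.247 TPM. Among the 16 tested, ASH2L, a subunit of the H3K4 methyltransferase complexes, was lower in CF than in WT (25.4 ± 1.61 CPM, n = 11, against 29.9 ± 0.99, n = 6, log2 difference -0.24, SE 0.05, adjusted p = 0.0464 in edgeR, a limit of 0.05 that 0.336% of all genes passed). Against non-CF its adjusted p was 0.0524, and 0 of 11 CF libraries were above the non-CF median.

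Among 19 kidney partners and targets of HOX proteins that were tested, none passed. PAX2, which acts with Hox11 proteins, had a median of 9.61 TPM, EYA1 2.26, GDNF 2.97 and SIX2 0.696. WNT9B, a ureteric bud signal, had 22.2 ± 7.86 CPM (SD, n = 11) in CF and 15.5 ± 2.70 (SD, n = 12) in non-CF, a log2 difference of 0.52 (SE 0.15, adjusted p = 0.110 in edgeR), and WNT11 had a log2 difference of 0.30 (SE 0.13, adjusted p = 0.279). Of the genes outside the clusters, 29 flanking genes were tested and none passed. The lowest p among them was that of SNX10 near HOXA (log2 difference 0.32, SE 0.10, adjusted p = 0.144 in edgeR). For CF against WT, the only cell type marker with an adjusted p under 0.05 was AQP1, a water channel of the thin descending limb and the proximal tubule that the medulla list holds (266 ± 76.3 CPM against 140 ± 35.7, log2 difference 0.93, SE 0.19, adjusted p = 0.0303 in edgeR), and its part in the HOX values was not tested.

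The cluster spans held 21 other annotated genes, 12 of them long noncoding RNAs and 5 miRNA precursors. Of the 16 genes other than miRNA precursors, 14 had a median of 1 TPM or more. The miRNA precursors were listed at 0 TPM in some libraries, and the medians of MIR10A and MIR10B rest on 6 and 4 counts. LOC110257591, an antisense noncoding gene within HOXA, had the highest median, 17.98 TPM. The miRNA precursors did not pass the expression filter. Of the 16 genes tested, none had an adjusted p under 0.05 for CF against non-CF, and 1, LOC110260667 in HOXC, had an unadjusted one (log2 difference 0.45, SE 0.20, adjusted p = 0.320 in edgeR). It lies on the minus strand at chr5:19176375-19181523, between HOXC12 and HOXC11.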

How the data were processed

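No strand setting of the quantification is given in the sources used here. The authors pseudoaligned reads to pig transcripts with kallisto, and per the labels the build was Sscrofa11.1. The estimated counts they deposited are per transcript and not normalized, and the TPM they deposited divide these by effective transcript length. TPM were summed per symbol. Over 77689 transcripts, estimated counts were added up by gene symbol and rounded, since 64% of values were not whole. Libraries were grouped by genotype label. edgeR 4.0.16 (R 4.3.3) was run with TMM, filterByExpr and quasi-likelihood F-tests, adjusted by Benjamini-Hochberg over all genes tested and a limit of 0.05. CF was set against non-CF in 1 fit, the 3 labels in another, and label by pig-number set in a separate one. Log2 CPM used a prior count of 2. Alternatives were DESeq2 1.42.0, limma-voom (limma 3.58.1), other normalizations and filters, the study's Mann-Whitney test, each set alone, and each library left out. Correlations used 100000 permutations (Python 3.11.15, scipy 1.17.1, pandas 2.3.3, numpy 2.4.6), and figures matplotlib 3.10.9. Fits were tested on simulated data. Limits of 3 counts cover counting error only. Sequences, coordinates and overlaps come from the RefSeq genome of that build, in which all 77689 transcripts were found, 73297 with the deposited length. All 36 symbols entered the counts of members, and the values of some genes are not reported here. Members named with values were those with the highest and lowest median TPM of each cluster, those past a limit or among the 8 smallest p for CF against non-CF, those at 0 counts in some library, and groups 9 to 11. The others named among neighbouring and same-number pairs and in the comparison by pig-number set were chosen after their values were seen. Members and lists were chosen with earlier results of these data known.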

Additional observations from a re-analysis of the deposited data

Results flagged for a closer look

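One value among the 58 groups of 6 libraries examined (29 members in HET and in WT) lay apart from the rest of its group. HOXC11 in HET pig 21 was at 8.09 CPM, and the nearest other HET library was at 10.6, a gap of 0.65 of the group's range. Chance gives such a gap in about 5% of groups.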

How the results depend on the processing

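The labels number the pigs from 1 to 23 and do not give their litters, so no analysis paired by litter was possible. For CF against non-CF the count of called members was 0, and it was 1 with DESeq2 (HOXD1), 4 in later-numbered pigs alone (HOXA3, HOXA9, HOXC8 and HOXC11) and between 0 and 1 when each library was left out, the 1 being HOXD1 without CF pig 4. For CF against WT it was 0, 1 with DESeq2 (HOXC11) and between 0 and 1 with each library left out, the 1 being HOXD1 without CF pig 4. For CF against HET it was 0, and 4 in later-numbered pigs alone (HOXA3, HOXA9, HOXC4 and HOXC8), where 2.42% of all genes were called. The only later-numbered HET libraries were those of pigs 19, 20 and 21, and the only WT ones those of pigs 22 and 23. The 11 neighbouring pairs became 5 in later-numbered pigs alone, where n was 10. Single fold changes were followed over all alternatives for the members with the smallest p of each comparison, and of these the following changed sign, namely HOXD10 (-0.0055) and HOXC8 (-0.14) for CF against non-CF in earlier-numbered pigs and HOXC10 for CF against WT in later-numbered pigs (0.036). Over all 29 members, 9 that were higher in CF than in non-CF over all libraries were lower in earlier-numbered pigs and 1 the other way round, and in later-numbered pigs 6 that were lower were higher. The adjusted p of HOXD1 for CF against non-CF ranged from 0.0112 to 0.584 over all alternatives, and those of HOXC11 for CF against WT from 0.0190 to 0.591. Of the other values, 161 counts stayed within 1.5 times and 549 fold changes kept their direction and their side of the threshold, while 8 fold changes in the same direction newly passed it. Leaving out libraries from the interaction, leaving CF pig 1 out of the pairs, and the same-number pairs were added after seeing the data. The causes were not tested. HOXC5 had at most 186 counts in a library, and the part of depth in the spread of its values was not tested.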
